A study of Homo sapiens with 12 samples.

Results

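The pentose phosphate and NADPH supply genes described here are 8 enzyme genes, chosen by symbol: PGD, TALDO1, TKT, RPIA, RPE, ME1, IDH1 and IDH2. They were chosen with earlier results of these data known, so counts over them are descriptions. All 8 were found among the 31654 gene rows used, and 7 passed the expression filter and were tested. ME1 did not pass it. RNA was measured in 4 glioblastoma cell lines with 3 libraries each. U251MG and U87MG are the parental lines. U251TR was derived from U251MG, and U87TR from U87MG, by growing the cells through rounds of rising doses of temozolomide, the alkylating drug used against glioblastoma. All lines grew in DMEM with serum, and the labels name no drug in the medium at harvest. There is 1 resistant line per parent, so a difference between a resistant line and its parent belongs to that pair of lines. Whether the 3 libraries per line are separate cultures is not stated in the labels. The p-values therefore cover only the spread among these libraries, and that spread may be technical.

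The pentose phosphate pathway branches from glycolysis at glucose 6-phosphate. Its oxidative branch makes NADPH and ribulose 5-phosphate, and its non-oxidative branch interconverts sugar phosphates and links ribose 5-phosphate, the backbone of nucleotides, to glycolytic intermediates. NADPH is the electron donor for regenerating glutathione and thioredoxin, for fatty acid and sterol synthesis and for making deoxynucleotides. NADP-linked isocitrate dehydrogenases and malic enzymes supply it outside the pathway. IDH1 and IDH2 are also known in this tissue as genes that are mutated in a class of gliomas, and gene-level expression values do not show the allele.

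The promoters are shown because several of these genes rose together in U251TR, and because a known control element, the core of the antioxidant response element, can be looked for in them. All 8 genes had a promoter in the RefSeq table of GRCh38.p14, in 9 windows that run from 250 bases before a transcription start to 50 after it (IDH1 has 2 starts). The core was searched as TGACNNNGC on both strands. It was found in 4 of the 8 genes, and 13.35% of the 35116 promoter windows in the table hold it. PGD, RPE and the 1 start of IDH1 shown here had 1 match each and ME1 had 2. TALDO1, TKT, RPIA, IDH2 and the other IDH1 start had no such letters in the window. The 250 bases before the start are given for PGD (chr1:10398814-10399063, plus strand), IDH1 (chr2:208255072-208255321, minus strand) and TKT (chr3:53256023-53256272, minus strand), the 2 genes that rose most in U251TR and the gene with the highest level. For RPE (chr2:210002466-210002516, plus strand) and ME1 (chr6:83431159-83431209, minus strand) the 51 bases around a match are given. Capitals mark the core, and each sequence reads 5′ to 3′ on the strand of the gene.
PGD: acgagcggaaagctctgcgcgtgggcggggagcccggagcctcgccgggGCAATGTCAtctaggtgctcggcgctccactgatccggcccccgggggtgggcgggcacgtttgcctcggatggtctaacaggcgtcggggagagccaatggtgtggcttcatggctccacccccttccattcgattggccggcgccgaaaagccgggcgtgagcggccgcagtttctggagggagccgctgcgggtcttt
IDH1: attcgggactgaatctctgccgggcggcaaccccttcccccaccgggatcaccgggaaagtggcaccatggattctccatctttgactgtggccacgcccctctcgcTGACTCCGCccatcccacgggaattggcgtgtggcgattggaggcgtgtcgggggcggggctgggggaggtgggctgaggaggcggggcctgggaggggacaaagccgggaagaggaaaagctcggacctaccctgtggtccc
TKT: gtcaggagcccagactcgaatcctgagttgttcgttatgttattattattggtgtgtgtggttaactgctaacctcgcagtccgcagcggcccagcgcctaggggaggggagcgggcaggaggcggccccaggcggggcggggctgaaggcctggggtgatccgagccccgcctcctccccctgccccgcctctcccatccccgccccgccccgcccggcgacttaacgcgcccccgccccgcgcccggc
RPE: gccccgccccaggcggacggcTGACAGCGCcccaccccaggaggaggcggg
ME1: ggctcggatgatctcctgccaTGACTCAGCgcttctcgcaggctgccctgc
The match lies 143 bases before the start in IDH1, 151 in RPE and 137 in ME1, all on the strand of the gene. In PGD it lies on the opposite strand, and its first base is 201 bases before the start. The other ME1 match is also on the opposite strand, 11 bases after the start. A match describes the letters only. Of the genes with a match, IDH1 and PGD rose in U251TR, RPE did not pass the test there and ME1 was too low to be tested. Of the genes without one, TKT, TALDO1 and IDH2 rose and RPIA did not pass. A part of the core in these changes was not tested.

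Levels are FPKM, fragments per kilobase of transcript scaled to the mapped fragments of the library, which can be compared between genes because they are per length. The table holds no counts, so the depth behind a value is unknown. The deposited values summed to 695282 to 785754 per library, with 13135 to 14122 genes at 1 FPKM or more. U251MG replicate 2 stood apart from its group (its rank correlations over genes were 0.977 and 0.978, while the other two had 0.993), and so did U87MG replicate 3 (0.983 and 0.987, while the other two had 0.993). In U251MG replicate 2 the genes PGD, TALDO1, TKT, IDH1 and IDH2 were above both other libraries of the line and RPIA and RPE below both, so results that rest on it are given with and without it. Of the glial markers, GFAP was at 18.32 FPKM or more in the U251 lines and at 2.28 or less in the U87 lines, and SOX2 and S100B were listed at 0 in all U87MG libraries. The mean of NES was 195.6 FPKM in U251MG and 7.793 in U87MG. VIM (1702 and 4917) and CD44 (395.7 and 1045) went the other way. The leukocyte markers PTPRC and CD3E summed to at most 0.08 FPKM in any library.

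In U251TR, 5 of the 7 tested genes were higher than in U251MG and none was lower: PGD, TALDO1, TKT, IDH1 and IDH2. Across all genes tested, 33.6% were called higher and 19.6% lower in this comparison, with a median log2 change of 0.10, while the median over the 7 genes was 0.82. A gene is called when its adjusted p is under 0.05 (limma's moderated test on log2(FPKM + 1), two-sided, Benjamini-Hochberg over the 15449 genes tested). Fold changes are on that scale. Because these are bulk libraries, more cells with a transcript and more of it per cell cannot be told apart.

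PGD, 6-phosphogluconate dehydrogenase, is the NADPH-producing step of the oxidative branch that yields ribulose 5-phosphate. It measured 87.78, 134.15 and 84.07 FPKM in replicates 1 to 3 of U251MG and 325.10, 340.08 and 349.97 in U251TR. Every resistant library lay above every parental one, and the lowest resistant value was far above the highest parental value, from replicate 2. PGD rose 3.37-fold (log2 1.75, SE 0.15, adjusted p 1.13e-06), and the log2 change was 1.96 without U251MG replicate 2. TALDO1, transaldolase, works in the non-oxidative branch. Its level was 133.86, 140.21 and 127.39 FPKM in U251MG against 196.51, 208.59 and 218.81 in U251TR, without overlap. The rise of TALDO1 was 1.55-fold (log2 0.63, SE 0.097, adjusted p 0.000174), and its log2 change without U251MG replicate 2 was 0.67. TKT, transketolase, the thiamine-dependent enzyme of the same branch, had the highest level of the 8 genes in every library. Its values were 511.95, 712.56 and 485.36 FPKM in U251MG and 963.53, 973.69 and 1032.33 in U251TR. The ranges did not overlap, although U251MG replicate 2 was well above the other two parental libraries. TKT rose 1.76-fold (log2 0.82, SE 0.14, adjusted p 0.000455), with a log2 change of 0.99 without that library.

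The enzymes that feed ribulose 5-phosphate into the non-oxidative branch, RPIA and RPE, did not pass the test, and their changes were not tested against those of the other genes. RPIA, ribose 5-phosphate isomerase, measured 13.31, 11.54 and 13.87 FPKM in U251MG and 11.36, 11.91 and 13.67 in U251TR. These ranges overlap almost fully, and the log2 change of -0.06 has a 95% confidence interval from -0.35 to 0.23 (adjusted p 0.723). The change was -0.14 (adjusted p 0.43) without U251MG replicate 2 and turned to 0.04 when the values were rescaled to TPM. RPE, ribulose 5-phosphate epimerase, measured 52.31, 39.20 and 56.21 FPKM in U251MG and 55.86, 57.07 and 56.48 in U251TR. The resistant libraries were tightly grouped, and parental replicate 3 lay within their range while replicate 2 lay lowest. The log2 change of RPE was 0.21 (95% confidence interval -0.05 to 0.47, adjusted p 0.152). Without U251MG replicate 2 it was 0.057 (adjusted p 0.562), and under median-of-ratios scaling 0.074 (0.662). It passed without U251MG replicate 3 (adjusted p 0.0495) and under TPM rescaling (0.043).

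Both NADP-linked isocitrate dehydrogenases rose. IDH1, the cytosolic and peroxisomal enzyme, measured 23.96, 31.78 and 22.19 FPKM in U251MG and 89.15, 87.86 and 93.02 in U251TR. All 3 resistant libraries were more than double any parental one. IDH1 rose 3.41-fold (log2 1.77, SE 0.11, adjusted p 7.56e-08), with a log2 change of 1.92 when U251MG replicate 2 was left out. IDH2, the mitochondrial enzyme, measured 20.59, 32.76 and 19.97 FPKM in U251MG against 45.21, 49.24 and 54.21 in U251TR. Again the groups did not overlap, with U251MG replicate 2 the highest parental library. IDH2 rose 2.03-fold (log2 1.02, SE 0.15, adjusted p 0.000143), and by 1.24 on the log2 scale without that library. ME1, the cytosolic NADP-dependent malic enzyme, was listed at 0.05, 0.07 and 0 FPKM in U251MG and at 0 in every U251TR library. It was under 1 FPKM in every library of the study and no fold is given. Summed transcripts of the 13 mitochondrially encoded proteins were 57290 to 63680 FPKM in U251MG and 48760 to 51540 in U251TR, and their part in these differences was not tested. The 6 glial and mesenchymal markers summed to 2109 to 3416 FPKM in U251MG and 1781 to 1882 in U251TR (VIM makes up much of the sum). Of these 6, GFAP (log2 4.09) and CD44 (0.27) were called higher and NES (-2.16), S100B (-1.92), VIM (-0.99) and SOX2 (-0.95) lower. The endothelial marker CDH5 was at 5.87 to 8.25 FPKM in U251MG and at 10.85 to 11.95 in U251TR. The part of these markers was not tested either.

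**Figure D1:**
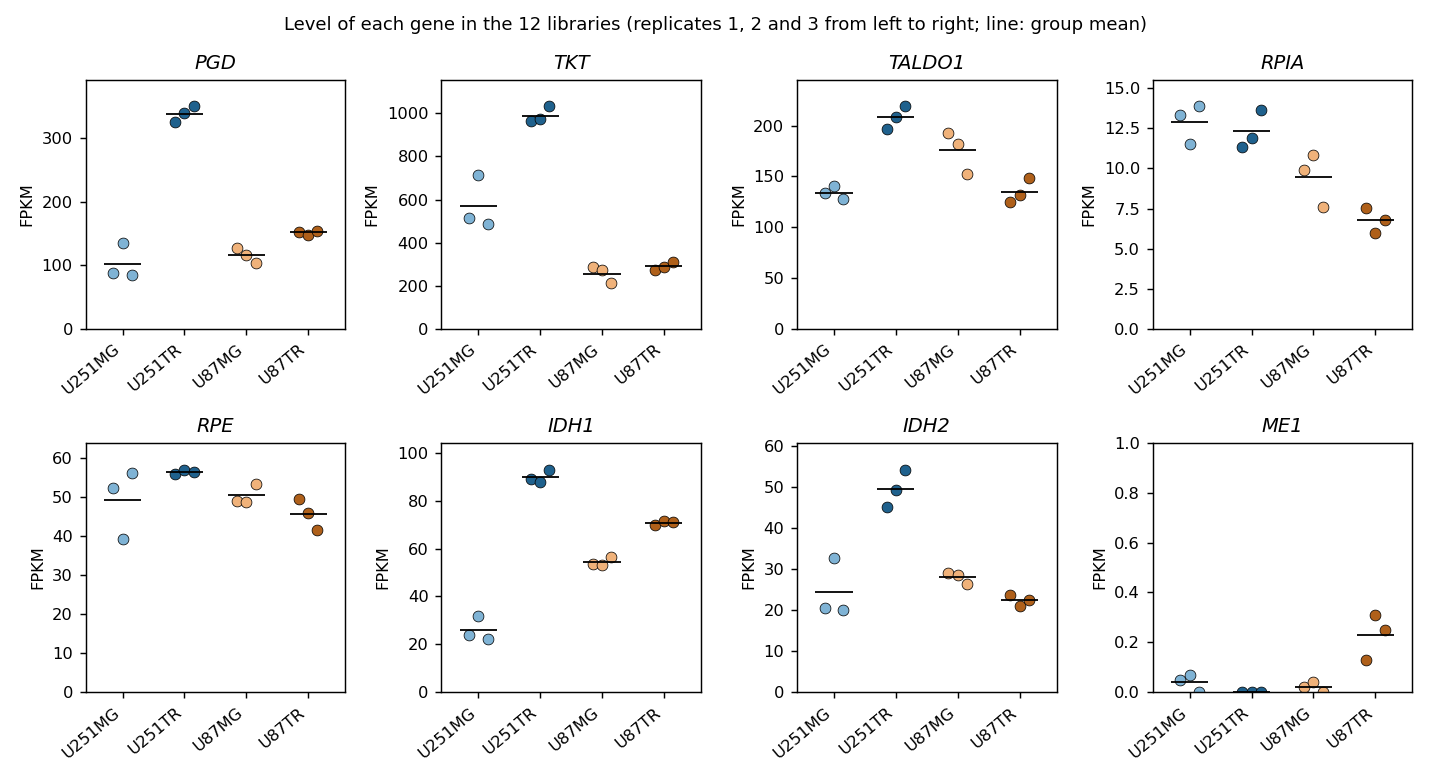
FPKM of each of the 8 genes (vertical axes start at 0, linear) in the 12 libraries by line; points are libraries and bars are the group means. PGD, TALDO1, TKT, IDH1 and IDH2 are highest in the 3 U251TR libraries, and ME1 stays at or under 0.31 FPKM.

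In U87TR IDH1 was higher than in U87MG, TALDO1 and RPIA were lower, and the other 4 tested genes did not pass the test. Across all genes 10.6% were called higher and 17.2% lower, with a median log2 change of -0.05. The counts of 1 higher and 2 lower of 7 are near that background. The median over the 7 genes was -0.14. The 3 U87TR libraries carry codes from a number range of their own. In this pair that range coincides with resistance, and between the resistant lines it coincides with the line. It also enters the difference between the changes of the pairs. In none of these comparisons can the effects be told apart. The summed mitochondrially encoded transcripts were 59840 to 64050 FPKM in U87MG and 57610 to 58220 in U87TR, and the 6 glial and mesenchymal markers 5519 to 6517 and 4389 to 4749, mostly VIM. Of the 6, NES (log2 1.598) and GFAP (0.68) were called higher, CD44 (-1.04) was called lower, and VIM (-0.28), SOX2 (0.26) and S100B (0.07) did not pass. The part of these transcripts in the differences was not tested.

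IDH1 measured 53.41, 53.13 and 56.65 FPKM in U87MG and 69.78, 71.47 and 71.25 in U87TR. The libraries of each line lay close together and the lines did not overlap. IDH1 rose 1.30-fold (log2 0.38, SE 0.11, adjusted p 0.0215). Leaving out any 1 of 5 libraries (U87MG replicates 1 and 2, U87TR replicates 1, 2 and 3) ended this call, with adjusted p from 0.0507 to 0.0718. TALDO1 measured 192.90, 182.23 and 151.84 FPKM in U87MG and 124.79, 131.33 and 148.23 in U87TR, and the lowest parental library, replicate 3, was just above the highest resistant one. The fall of TALDO1 was 1.30-fold (log2 -0.38, SE 0.097, adjusted p 0.0131). This call was lost without U87MG replicate 1 (adjusted p 0.059), U87MG replicate 2 (0.0547) or U87TR replicate 1 (0.0557). RPIA measured 9.93, 10.86 and 7.60 FPKM in U87MG and 7.51, 5.99 and 6.81 in U87TR. The lines were separated only narrowly, again at U87MG replicate 3. RPIA fell 1.34-fold (log2 -0.42, SE 0.13, adjusted p 0.0336), a call lost in 10 of the 16 alternative settings. Among them were the fits without U87MG replicate 1 (adjusted p 0.1035) or 2 (0.143) and without U87TR replicate 2 (0.125) or 3 (0.0763). Without U87MG replicate 3, the library that stood apart, the counts were again 1 gene higher and 2 lower.

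PGD measured 127.61, 116.27 and 103.79 FPKM in U87MG and 152.22, 148.09 and 154.24 in U87TR. Every U87TR library was above every U87MG one, but the log2 change of 0.39 missed the threshold (95% confidence interval 0.07 to 0.71, adjusted p 0.0664). It passed under median-of-ratios scaling (adjusted p 0.0336), under TPM rescaling (0.0455) and when only the libraries of the 2 lines were fitted (0.0143). In the other 13 of 16 alternatives it did not pass. Without U87MG replicate 3 the PGD change was smallest, at log2 0.31 (adjusted p 0.178). TKT measured 288.14, 270.41 and 210.39 FPKM in U87MG and 274.15, 285.90 and 307.69 in U87TR, with overlap. Its log2 change was 0.18 (95% confidence interval -0.13 to 0.50, adjusted p 0.374), and 0.05 (adjusted p 0.843) without U87MG replicate 3. RPE measured 49.16, 48.92 and 53.41 FPKM against 49.59, 46.00 and 41.70, also with overlap (log2 change -0.14, 95% confidence interval -0.40 to 0.11, adjusted p 0.411). IDH2 measured 28.99, 28.57 and 26.25 FPKM in U87MG and 23.56, 21.05 and 22.56 in U87TR. These ranges did not overlap, yet the log2 change of -0.31 missed the threshold (95% confidence interval -0.64 to 0.03, adjusted p 0.164). It passed when only the libraries of the 2 lines were fitted (adjusted p 0.0224). ME1 was listed at 0.02, 0.04 and 0 FPKM in U87MG and 0.13, 0.31 and 0.25 in U87TR. The U87TR libraries hold the highest ME1 values of the study, all of them low.

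The change in U87TR was then set against the change in U251TR as a difference within the same model. For 5 of the 7 genes the U87 change was the lower one, and for none was it higher. Of all genes tested, 47.6% differed between the pairs in either direction, so a difference between the pairs was common. The U87 change was the lower one for 4966 of these genes and the higher one for 2384. Under median-of-ratios scaling these counts were 3751 and 3197. The median log2 difference was -0.17 over all genes and -1.01 over the 7. The difference (U87 pair minus U251 pair) was -1.39 for IDH1 (SE 0.15, adjusted p 1.74e-05) and -1.36 for PGD (SE 0.21, adjusted p 0.000205). It was -1.33 for IDH2 (SE 0.22, adjusted p 0.000373) and -1.01 for TALDO1 (SE 0.14, adjusted p 9.76e-05). IDH1 was called higher in both pairs, so its difference is one of size. TALDO1 was called in opposite directions. For TKT the difference was -0.63 (SE 0.20, adjusted p 0.0222), a call lost in 6 of 21 settings, with adjusted p from 0.0518 to 0.0745. These were the fits without U251MG replicate 1 or 3, without U87MG replicate 1 or 2, with no filter and under median-of-ratios scaling. RPIA (-0.36, adjusted p 0.138) and RPE (-0.35, adjusted p 0.101) did not pass. RPIA passed without U87MG replicate 3 (adjusted p 0.0286), and RPE without U251MG replicate 3 (0.0389).

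**Figure D2:**
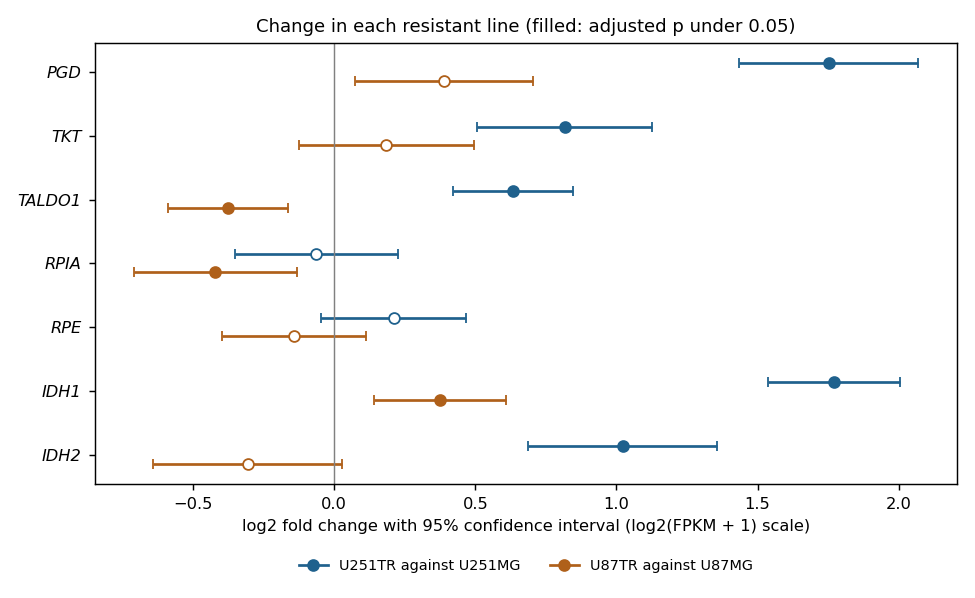
Log2 fold change on the log2(FPKM + 1) scale with its 95% confidence interval for the 7 tested genes in each resistant line against its parent; filled points have an adjusted p under 0.05. PGD and IDH1 reach 1.75 and 1.77 in the U251 pair against 0.39 and 0.38 in the U87 pair, and TALDO1 lies on opposite sides of 0.

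The parental lines differed in 4 of the 7 genes. TALDO1 (log2 0.38, adjusted p 0.00352) and IDH1 (log2 1.05, adjusted p 2.22e-06) were higher in U87MG than in U251MG. TKT (log2 -1.14, adjusted p 1.39e-05) and RPIA (log2 -0.42, adjusted p 0.0129) were lower, the latter not without U87MG replicate 3 (adjusted p 0.0558). Of all genes, 32.2% were called higher and 40.1% lower in U87MG, and 2 of 7 in each direction is near that background. Without U251MG replicate 2, 4 genes were higher in U87MG, as PGD (log2 0.42, adjusted p 0.000574) and IDH2 (log2 0.44, adjusted p 0.000709) then passed, and the difference for RPE changed sign from 0.05 to -0.10 without passing. Between the resistant lines all 7 tested genes were lower in U87TR than in U251TR, where 25.5% of all genes were called higher and 47.1% lower. The number range of the U87TR codes coincides with the line here. The log2 differences were -1.77 for TKT (adjusted p 2.43e-07), -1.15 for PGD (1.41e-05), -1.11 for IDH2 (3.22e-05) and -0.78 for RPIA (0.000189). They were -0.62 for TALDO1 (8.94e-05), -0.34 for IDH1 (0.0126) and -0.30 for RPE (0.0351). The median over all genes was -0.27 here. Under median-of-ratios scaling it was -0.02, and IDH1 (log2 -0.05, adjusted p 0.649) and RPE (log2 -0.02, adjusted p 0.919) then no longer passed. RPE was also lost without any 1 of U251TR replicates 1, 2 and 3 and U87TR replicates 2 and 3, with adjusted p from 0.0667 to 0.128. In all, the RPE call was lost in 8 of the 16 alternative settings.

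The order of the lines differed from gene to gene, as the plot of levels by library shows. IDH1 ran U251TR, U87TR, U87MG, U251MG from highest to lowest mean, at 90.01, 70.83, 54.40 and 25.98 FPKM, with no overlap between neighbours. PGD had the same order, at 338.4, 151.5, 115.9 and 102.0 FPKM, but the libraries of the parental lines overlapped. TALDO1 was highest in U251TR (208.0 FPKM) and then U87MG (175.7), and the libraries of U87TR and U251MG overlapped. TKT followed the line of origin, with U251TR (989.9 FPKM) and U251MG (570.0) above U87TR (289.2) and U87MG (256.3), which overlapped. RPIA overlapped between the U251 lines and was lower in U87MG and lowest in U87TR. IDH2 and RPE were highest in mean in U251TR, and for both genes the libraries of U251MG overlapped those of each U87 line. U87MG and U87TR overlapped for RPE and not for IDH2.

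TKT was the largest single part of the summed level of the 8 genes in every line. TKT made up 61.77% ± 2.51 (SD, n = 3) of the sum in U251MG, 56.74% ± 0.40 in U251TR, 36.99% ± 2.17 in U87MG and 40.07% ± 0.92 in U87TR. PGD made up 10.99% ± 1.02 in U251MG and 19.4% ± 0.24 in U251TR. The sum was 843.8, 1102 and 809.1 FPKM in the U251MG libraries and 1687, 1728 and 1818 in U251TR, without overlap. In U87MG it was 750.2, 710.4 and 609.9 FPKM and in U87TR 701.7, 710.1 and 752.7, which overlap. The geometric mean of the sum was 1.92 times higher in U251TR than in its parent and 1.05 times higher in U87TR.

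Ratios between genes within a library do not depend on the scaling of that library. The ratio of IDH1 to IDH2 was 1.16, 0.97 and 1.11 in U251MG and 1.97, 1.78 and 1.72 in U251TR. It was 1.84, 1.86 and 2.16 in U87MG and 2.962, 3.395 and 3.158 in U87TR. Thus the cytosolic enzyme gained on the mitochondrial one in both resistant lines, 1.69 times in the U251 pair and 1.63 times in the U87 pair, and neither pair overlapped. The ratio of TKT to PGD was 5.83, 5.31 and 5.77 in U251MG and 2.96, 2.86 and 2.95 in U251TR. In the U87 pair it was 2.26, 2.33 and 2.03 in the parental libraries and 1.801, 1.931 and 1.995 in the resistant ones. The log2 change of this ratio was -0.95 in the U251 pair and -0.21 in the U87 pair. With 3 libraries against 3, a two-sided exact permutation test cannot go below 0.1, and it gave that p for both ratios in both pairs. For the sum it gave 0.1 in the U251 pair and 0.7 in the U87 pair.

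**Figure D3:**
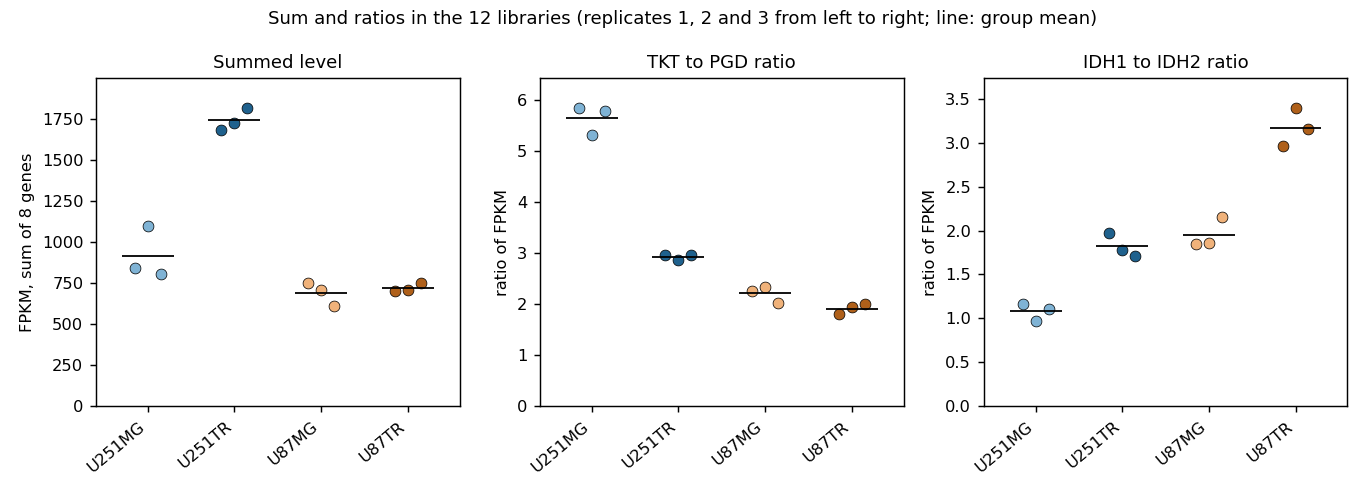
Summed FPKM of the 8 genes, the IDH1 to IDH2 ratio and the TKT to PGD ratio in each library (points) by line, with bars at the mean and linear axes from 0. The IDH1 to IDH2 ratio is higher in each resistant line than in its parent, while the summed levels overlap in the U87 pair and do not in the U251 pair.

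Other genes of the same chemistry were read from 4 lists. The lists were drawn from general knowledge but with earlier results of these data known, so their counts are descriptions. The counts stand beside the shares of all genes, 33.6% higher and 19.6% lower in U251TR and 10.6% and 17.2% in U87TR. Among the other pentose phosphate genes, 8 of 11 were tested. In U251TR 3 were higher and 1 lower, with a list median log2 change of 0.10, the same as over all genes. H6PD carries out the first steps of the oxidative branch in the endoplasmic reticulum. It rose from 7.75 ± 0.30 to 25.93 ± 2.34 FPKM (SD, n = 3, log2 1.62, adjusted p 6.93e-07). RBKS, ribokinase, rose from 1.09 to 2.79 FPKM (log2 0.86, adjusted p 8.12e-05), and PGM2, a phosphopentomutase named after its values were seen, rose by 0.72 on the log2 scale (adjusted p 0.00118). TKTL1, a transketolase-like gene, measured 4.14, 5.44 and 4.27 FPKM in U251MG and 0, 0.47 and 0.01 in U251TR (log2 -2.29, adjusted p 1.19e-07), opposite to TKT. It was at or under 0.06 FPKM in all U87 libraries. In U87TR only RBKS passed (log2 0.37, adjusted p 0.0403), and the list median was -0.003.

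Of the genes listed as other NADPH-producing or NADP-making, 11 of 12 were tested. In U251TR 1 was higher and 4 were lower (33.6% and 19.6% of all genes), with a median log2 change of -0.10. ME3, the mitochondrial NADP-dependent malic enzyme, fell from 3.76 ± 0.34 to 0.22 ± 0.09 FPKM (SD, n = 3, log2 -1.96, adjusted p 4.99e-07). MTHFD2L, a mitochondrial folate enzyme, fell from 29.77 to 9.53 FPKM (log2 -1.55, adjusted p 8.20e-08). GLUD1, glutamate dehydrogenase, fell from 104.4 to 54.64 FPKM (log2 -0.91, adjusted p 6.29e-06). The 2 further calls were named after their values were seen. NADK, the cytosolic NAD kinase that makes NADP, rose (log2 0.31, adjusted p 0.022). MTHFD1L, counted among the 4, fell (log2 -0.54, adjusted p 0.0228), but this folate enzyme itself makes neither NADPH nor NADP. In U251MG replicate 2 it was at 45.63 FPKM, within the U251TR range of 44.55 to 47.29. In U87TR 1 was higher and 2 lower, near the 10.6% and 17.2% of all genes, with a median of 0.04. ME2, the mitochondrial malic enzyme that works mainly with NAD, fell from 24.43 to 12.66 FPKM (log2 -0.89, adjusted p 0.000143). NADK fell there (log2 -0.37, adjusted p 0.0166) and NNT, the mitochondrial transhydrogenase, rose (log2 0.33, adjusted p 0.0388).

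The NAD-linked isocitrate dehydrogenase, the Krebs cycle enzyme built from IDH3A, IDH3B and IDH3G, had 2 subunits lower and none higher in U251TR. IDH3B fell from 83.28 ± 5.13 to 53.79 ± 3.74 FPKM (SD, n = 3, log2 -0.62, adjusted p 0.000125) and IDH3G from 53.13 ± 10.46 to 38.26 ± 1.24 (log2 -0.45, adjusted p 0.0059). IDH3A did not pass (log2 0.19, adjusted p 0.309). In U87TR limma called 0 of the 3, and 0 had an unadjusted p under 0.05.

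Of the enzymes that use NADPH, 12 of 13 were tested, and in U251TR 9 were higher and 1 was lower, with a median log2 change of 0.89. BLVRB, biliverdin reductase B, rose from 41.26 to 161.7 FPKM (log2 1.94, adjusted p 2.11e-08). NQO1, a quinone reductase, rose from 249.4 ± 11.17 to 949.6 ± 66.02 FPKM (SD, n = 3, log2 1.92, adjusted p 1.37e-05). AIFM2, the ubiquinone reductase known as a ferroptosis suppressor, rose from 12.5 to 40.5 FPKM (log2 1.62, adjusted p 1.38e-07). The 1 that fell was TXNRD2, the mitochondrial thioredoxin reductase, named after its values were seen (log2 -1.45, adjusted p 5.81e-05). In U87TR 2 were higher and 1 lower, with a median of -0.05. CBR3, a carbonyl reductase, rose from 16.01 to 29.32 FPKM (log2 0.84, adjusted p 0.0127) and AIFM2 from 12.69 to 19.03 (log2 0.56, adjusted p 0.00205). FASN, fatty acid synthase, fell from 31.73 ± 2.98 to 16.68 ± 2.57 FPKM (SD, n = 3, log2 -0.89, adjusted p 0.00882).

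**Figure D4:**
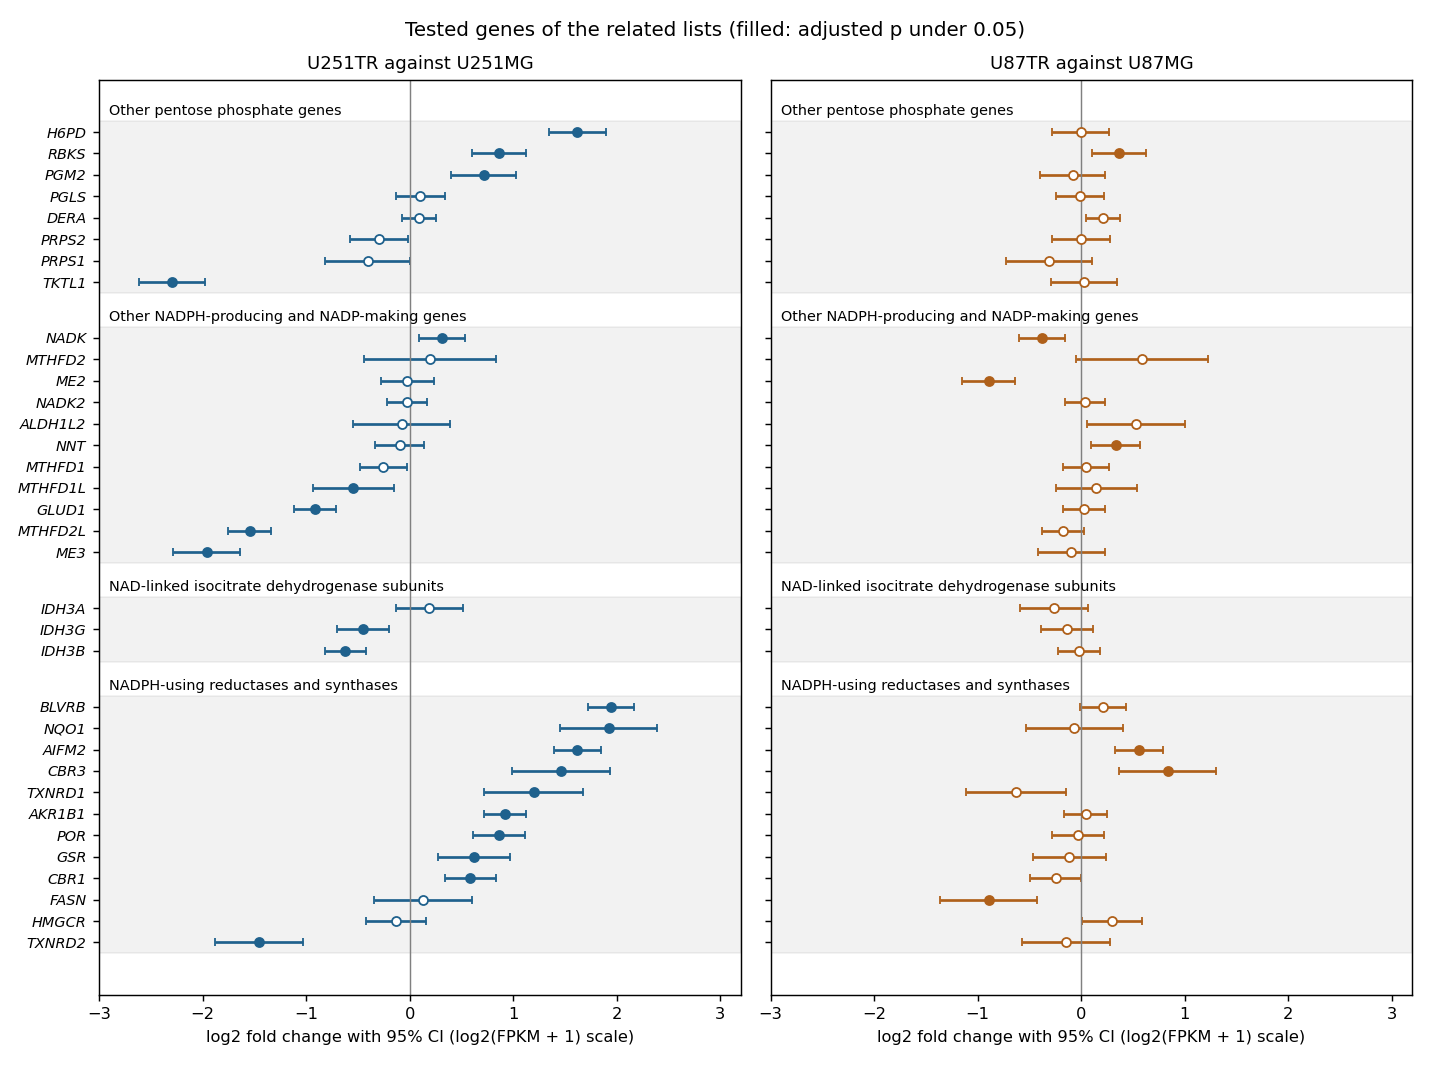
Log2 fold change on the log2(FPKM + 1) scale with its 95% confidence interval for the tested genes of 4 related lists, U251TR against U251MG on the left and U87TR against U87MG on the right; filled points have an adjusted p under 0.05. In the U251 pair 9 of 12 NADPH-using enzymes were called higher. Of the 11 tested genes listed as other NADPH-producing or NADP-making, 4 were called lower in that pair. In the U87 pair 7 points are filled.

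For each tested gene, the expressed gene with the nearest pattern was found among 7336 candidates with a mean of 10 FPKM or more, as the smallest Euclidean distance between 4 centred group means of log2(FPKM + 1). The nearest was NFKB2 for PGD (distance 0.12), CCNB1 for TALDO1 (0.043), FEZ1 for TKT (0.12) and OPA1 for RPIA (0.046). It was SDHAF2 for RPE (0.032), KRCC1 for IDH1 (0.17) and MLF1 for IDH2 (0.086). With 4 group means per gene, such nearness is a description.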

How the data were processed

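RNA-seq libraries of 12 samples in 4 groups of 3 were grouped by the titles in the labels. The authors' deposited table gives FPKM to 2 decimals for 31681 symbols. No header or label names the unit, so it was inferred from the values. Alignment with STAR 2.5.2b and quantification with RSEM 1.2.31 are listed in the submitters' processing notes. The build is hg19 in those notes and hg38 in the series' design text, which can affect gene models. Counts and depth per library are not given in the sources used here. Symbols turned into dates (27) were dropped. Libraries were not rescaled.

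Genes that reached 1 FPKM in 3 or more libraries (15449) were fitted as log2(FPKM + 1) with limma 3.58.1 in R 4.3.3 (group means, variance trend, robust moderation, all 12 libraries), and p-values were adjusted by Benjamini-Hochberg. The added 1 FPKM understates folds of weakly expressed genes. The script was tested on simulated data. Comparisons were each resistant line against its parent, the difference of these changes, and the parental and the resistant lines against each other. Ratios and sums were compared by exact permutation with SciPy 1.17.1.

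Alternatives were other pseudocounts, filters, scalings, a replicate block, other moderation, fewer groups and each library left out. Named genes were the 8 genes, up to 3 called genes with the largest change per list and pair, and the nearest genes by pattern, of which the nearer of 2 is given. The 8 genes and the lists were chosen with earlier results of these data known. The lists do not cover every enzyme of these pathways, and others were not analysed here. Some genes of the lists are not reported here. The marker PECAM1 was not analysed here, and the epithelial markers EPCAM and CDH1 summed to at most 1.19 FPKM.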

Additional observations from a re-analysis of the deposited data

Results flagged for a closer look

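These 5 results stood out because the change in U87TR differed from the change in U251TR by a test of the difference itself (limma, Benjamini-Hochberg over all genes tested). The differences, U87 pair minus U251 pair on the log2 scale, were -1.39 for IDH1, -1.36 for PGD, -1.33 for IDH2, -1.01 for TALDO1 and -0.63 for TKT. All 3 U251TR libraries lay above all 3 U251MG libraries for these 5 genes. In the U87 pair IDH1 and PGD lay the same way, TALDO1 and IDH2 the opposite way, and TKT overlapped. How many of all genes were separated like this in either pair was not computed. Of all genes, 33.6% were called higher in U251TR than in U251MG. Across all genes 47.6% differed between the pairs, so such a difference is common in these lines. The U87 change was the lower one for 4966 genes and the higher one for 2384. The number range of the U87TR codes enters all 5 differences, and its effect cannot be told apart from that of the lines.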

How the results depend on the processing

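Over 35 gene results and 595 alternative values, 547 kept their direction and side of the threshold, 36 lost a call, 10 gained one and 2 changed sign. The 5 genes called higher in U251TR were called in all 16 alternatives there. The 2 that changed sign were RPIA in U251TR under TPM rescaling (0.0425) and RPE between the parental lines without U251MG replicate 2 (-0.102, with a range from there to 0.1525 over single libraries left out), neither called. The summed level in the U87 pair changed sign without U87MG replicate 3 (-0.0176). In U87TR, the genes called higher numbered 2 under median-of-ratios scaling, TPM rescaling and a fit of only the libraries compared, and 0 to 1 with 1 library left out. Those called lower numbered 1 with no filter, under median-of-ratios scaling, TPM rescaling, quantile normalization and the replicate block, and 0 to 2 with 1 library left out. Between the parental lines, those called higher numbered 2 to 4 with 1 library left out. Those lower numbered 1 under median-of-ratios scaling and quantile normalization, and 1 to 2 with 1 library left out. The cause was not tested.

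Deviations from the group means correlated at -0.058 to 0.13 across genes between same-numbered libraries. Differently numbered libraries were not compared, so these values cannot tell whether the numbers pair the libraries. With the replicate block, 8119 genes were called in the U251 pair and 4094 in the U87 pair, and of the 8 genes RPIA in U87TR was lost (adjusted p 0.0538). Scaling shifted all genes: of the calls in the U251 pair 63.2% were higher, and 50.9%, 72.1% and 49.3% under median-of-ratios, TPM and quantile scaling. For the U87 pair these shares were 38.1%, 45.2%, 46.2% and 48.8%, for the difference 32.4%, 46%, 27.9% and 48.6%, and for the resistant lines 35.1%, 48.4%, 33.4% and 48.7%. The median over all genes in the U251 pair moved from 0.096 to 0, 0.197 and -0.013. Depth is unknown, so ME1 and other low values carry no counting limit.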
